A study of Mus musculus with 6 samples.

Results

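The genes described here are 8 precursors of neuropeptides found in the retina (Adcyap1, Vip, Sst, Tac1, Cck, Npy, Cartpt and Penk) and Adcyap1r1, the receptor for the peptide PACAP, which Adcyap1 encodes. They are 9 of the 18193 genes that the arrays measured, and 13 of the 45037 probe sets, each a group of oligonucleotides against 1 transcript. The genes were listed by symbol, with earlier results of these data known. The probe set that stands for each gene was chosen by its mean log2 intensity over all 6 arrays, the brightest being taken, so the level itself is only described. The arrays compared adult retinas of 3 Trim9 KO mice with those of 3 WT littermates, to look for transcriptional differences in mice without the E3 ubiquitin ligase Trim9. The KO allele had lost exon 1 by Cre excision after a cross to CMV-cre mice, a line in which the recombinase acts throughout the body, so the deletion was not limited to a retinal cell type. An exact age is not given, nor whether the WT littermates carried Cre. The labels do not say whether an array held 1 retina or a pool.

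Neuropeptides are cut from larger precursor proteins, packed into dense core vesicles together with granins, and released to act on G protein-coupled receptors. In the retina they are made mostly by subsets of amacrine cells and ganglion cells, where they act beside a fast transmitter such as GABA or glutamate. PACAP and VIP are related peptides. PACAP binds the receptor encoded by Adcyap1r1 with high affinity, both peptides bind those of Vipr1 and Vipr2, and all these receptors raise cyclic AMP through the stimulatory G protein.

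Values below are linear array intensities, brought by the authors to a common trimmed mean, and comparisons use log2(intensity + 16). All log2 fold changes are Trim9 KO over WT. Over all probe sets their median was 0.18, or 0.015 after quantile normalization and -0.14 with equal array medians. The folds below are given without subtracting it. The brightest probe set for Trim9 read 1498, 497 and 367 on Trim9 KO replicates 1, 2 and 3, against 4226, 1767 and 1667 on WT replicates 1, 2 and 3, with no overlap. Of its 4 probe sets, 2 had no overlap (log2 fold changes -1.81 and -2.48) and 2 overlapped between the genotypes (-0.77 and -0.58). The position of their probes relative to exon 1 is not known here. Trim9 KO replicate 1 stood apart, with a Pearson's r across probe sets of 0.47 to 0.52 with the other arrays. The rod markers were bright on all arrays (mean log2 intensity 15.4 to 16.5 in Trim9 KO and 15.6 to 16.7 in WT retinas, 6 of 7 measured), and none was at 0. Amacrine cell markers averaged 11.2 to 12.7 in Trim9 KO and 10.9 to 12.8 in WT retinas (10 of 11 measured), and ganglion cell markers 12.2 to 12.8 and 12.4 to 13.3 (8 of 9 measured). Markers of the pigment epithelium, a neighbouring tissue, averaged 10.9 to 12.7 in Trim9 KO and 10.5 to 11.3 in WT retinas. All 7 had a higher mean in KO, and none was at 0. The higher mean rested on Trim9 KO replicate 3 for Rpe65, Lrat and Tyrp1, and on replicate 1 for Pmel and Best1. Dimmer probe sets for Ttr, Lrat and Tyrp1 did not all share this direction. The part of these markers in the results below was not tested. In a whole retina, fewer cells of a type cannot be told apart from less RNA in each cell.

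Across the array, 0% of probe sets passed an adjusted p of 0.05 in limma, and none of the 13 probe sets described here did. The lowest adjusted p was 0.999, with 1296 probe sets at an unadjusted p under 0.05. The mean of Trim9 KO retinas was the lower one for 5 of the 9 genes and for 44.8% of all genes, and the median log2 fold change of the 9 was -0.30, against 0.14 over all genes. For the brightest probe sets of the 8 peptide genes, a two-sided exact permutation test gave p = 0.4 to 1, where 3 against 3 arrays can give no less than 0.1. For 1 of the 9, Adcyap1r1, the genotypes did not overlap, where 8.24% of all genes had no overlap in either direction. Every KO array lay above every WT array for 5.35% of genes and below for 2.89%. Since Adcyap1r1 was listed with its difference known, its values are a description and carry no test.

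Adcyap1r1 read 3396, 1366 and 558 in Trim9 KO retinas, against 262, 81.1 and 192 in WT retinas, on replicates 1, 2 and 3 of each. All 3 KO arrays lay above all 3 WT arrays, and Trim9 KO replicate 1 was the highest. The readings of WT replicates 2 and 3 lay below the median intensity of their arrays (675 and 318), and those of the other arrays above it. The means were 10.44 ± 1.29 in Trim9 KO and 7.47 ± 0.78 in WT retinas (log2 intensity, SD, n = 3 each). Their difference was 2.97 on the log2 scale (standard error 1.03). It was between 2.33 and 3.61 when any 1 array was left out, the lower value being that without Trim9 KO replicate 1. Without overlap, its sign could not turn there. The difference was 3.01 after quantile normalization and 2.65 with equal array medians.

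The other probe sets for Adcyap1r1, both dimmer on average than the median probe set, did not all show this pattern. The dimmest of the 3 read 614, 491 and 128 on Trim9 KO replicates 1 to 3, against 29.8, 101 and 78.9 on WT replicates 1 to 3, again with no overlap (log2 fold change 2.16, standard error 1.00). The remaining probe set read 3119, 88.1 and 67.0 in Trim9 KO retinas, against 179.6, 37.3 and 595 in WT retinas. There the genotypes overlapped, and the high mean in KO rested on replicate 1 (log2 fold change 0.70, standard error 1.48). In WT retinas alone this probe set was the brightest of the 3 (mean log2 intensity 7.53, against 7.47 for the one that stands for the gene). The choice of probe set for Adcyap1r1 thus rested on the KO arrays, where the chosen one was high. With the mean of the 3 probe sets, the log2 fold change of Adcyap1r1 was 1.94. Trim9 KO replicate 1, the brightest array for all 3, also had the highest median intensity of the 6 arrays, 807, against 218 to 675 on the other arrays. The part of this in the values was not tested.

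**Figure D1:**
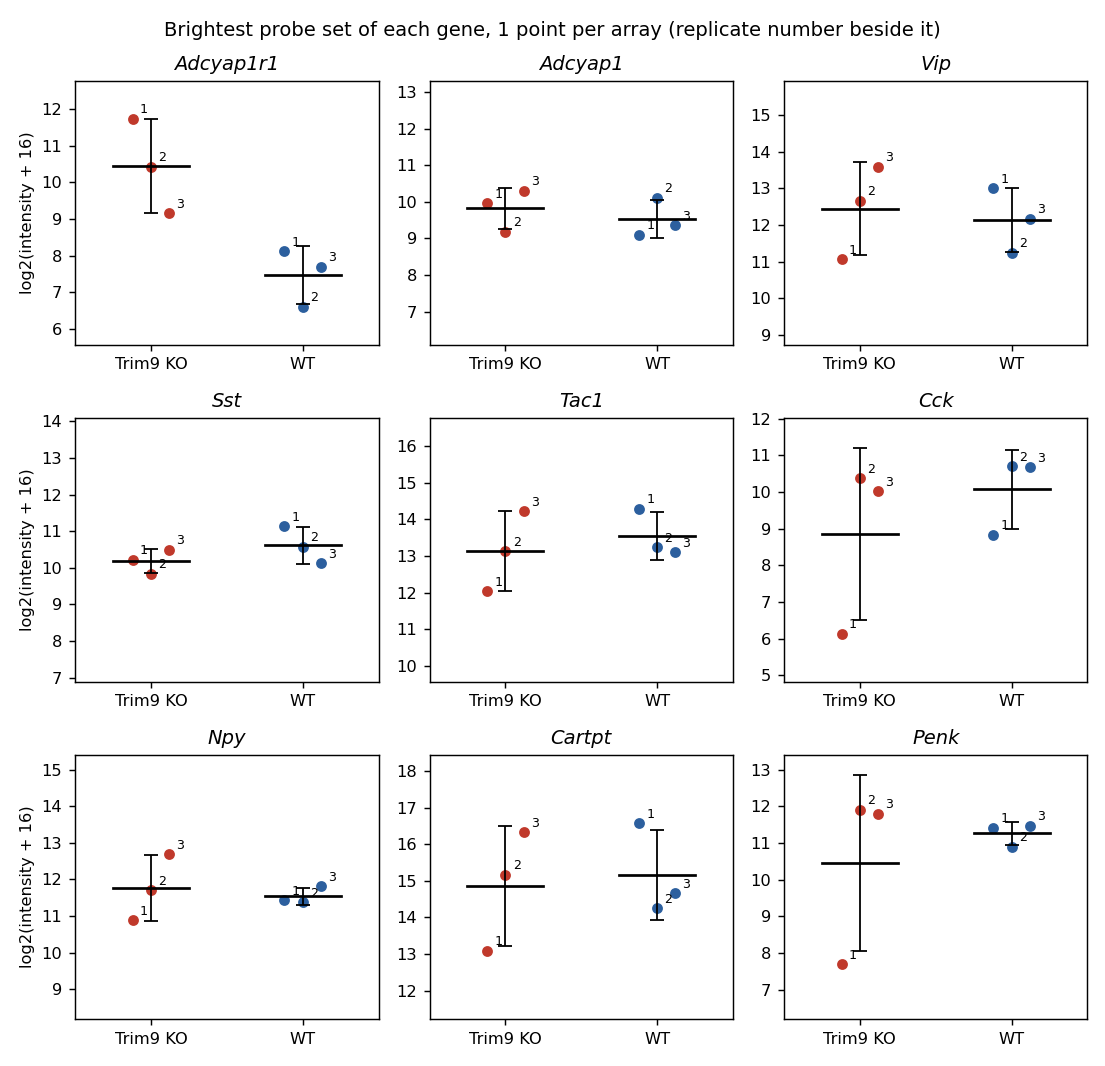
Log2(intensity + 16) (y axis, 7.2 log2 units in each panel) of the brightest probe set of the 9 genes in Trim9 KO (left, red) and WT (right, blue) retinas, with 1 point per array and its replicate number beside it. Long lines are means and bars are the SD. Adcyap1r1 is the gene whose genotypes do not overlap, and Trim9 KO replicate 1 lies far below the other arrays for Cck and Penk.

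The brightest probe set for Adcyap1, the gene of PACAP, read 982, 567 and 1248 in Trim9 KO retinas, against 531, 1089 and 645 in WT retinas. The genotypes overlapped, with a log2 fold change of 0.29 (95% interval -1.74 to 2.33, limma). A dimmer probe set for Adcyap1 read 123, 749.9 and 593 in Trim9 KO retinas, against 64.6, 64.1 and 153 in WT retinas. Its log2 fold change was 1.96 (95% interval -0.28 to 4.21), and Trim9 KO replicate 1 lay within the WT range. Thus the probe sets of Adcyap1 agreed in direction but not in size, and the brighter one turned to -0.022 after quantile normalization and to -0.028 with equal array medians.

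Vip, whose peptide marks a class of amacrine cells, read 2138, 6452 and 12279 in Trim9 KO retinas, against 8153, 2409.9 and 4596 in WT retinas. The WT arrays lay within the range of the KO arrays (log2 fold change 0.30, 95% interval -1.97 to 2.57). The receptors that VIP and PACAP share had a mean over the 6 arrays below the median of all probe sets. Each WT reading of Vipr2 nevertheless lay above the median intensity of its array, and each KO reading below. Vipr2 read 117, 70.6 and 72.7 in Trim9 KO retinas, against 484, 1667 and 461 in WT retinas. None of the KO arrays reached the WT range (log2 fold change -2.87, standard error 0.96), the opposite direction to Adcyap1r1. The brighter probe set for Vipr1 read 115, 490.3 and 6.86 in Trim9 KO retinas, against 30.8, 44.6 and 25.8 in WT retinas, with overlap between the genotypes. Vipr1 and Vipr2 are singled out here after their values were seen.

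Cyclic AMP acts on genes through the cyclic AMP response element (CRE), whose full form is TGACGTCA, a sequence that reads the same on both strands. The promoters of somatostatin and VIP are textbook examples of genes with this element, so the windows from 250 bases before to 50 bases after the transcription start were searched on both strands for it, for its 7-letter form TGACGTC and for its 5-letter core TGACG. Each shorter form is contained in the longer ones. RefSeq windows (build GRCm38.p6) were matched by symbol for 8 of the 9 genes, not for Penk. The full element was in 1.79% of all 32851 windows, the 7-letter form in 3.21% and the core in 20.8%. Sst and Cartpt held the full element, Vip and Adcyap1 the 7-letter form, and Tac1 and Cck the core alone, whereas the windows of Npy and Adcyap1r1 held none of the 3. The stretches around the element are shown because the receptors of PACAP and VIP signal through cyclic AMP. They are written 5′ to 3′ on the strand of the gene, with the matched letters in capitals. The matches start at position -48 from the transcription start for Sst, -112 for Cartpt, -79 for Vip and -91 for Adcyap1. From a second start listed for Adcyap1, the same match lies at -242.
Sst (chr16:23890859-23890918, minus strand): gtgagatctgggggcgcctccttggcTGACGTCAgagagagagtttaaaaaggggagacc
Cartpt (chr13:99900762-99900821, minus strand): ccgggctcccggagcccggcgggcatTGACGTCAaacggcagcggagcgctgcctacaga
Vip (chr10:5639113-5639171, plus strand): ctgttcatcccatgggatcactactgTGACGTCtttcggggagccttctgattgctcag
Adcyap1 (chr17:93198900-93198958, plus strand): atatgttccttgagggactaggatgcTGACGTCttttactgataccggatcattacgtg

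For the 4 genes with the full or 7-letter element, the log2 fold changes of the brightest probe sets were -0.43 for Sst, -0.30 for Cartpt, 0.30 for Vip and 0.29 for Adcyap1, each smaller than its standard error. With equal array medians all 4 were negative (-0.75, -0.62, -0.019 and -0.028 in the same order). A match of letters is a description of the window and not of a factor bound there.

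Sst, the precursor of the inhibitory peptide somatostatin, read 1177, 899 and 1430.4 in Trim9 KO retinas, against 2233, 1515 and 1094 in WT retinas. Its mean was lower in KO whichever array was left out (log2 fold change -0.43, 95% interval -2.43 to 1.58, range -0.67 to -0.16). The WT value that overlapped with the KO arrays was that of replicate 3. Tac1, the precursor of substance P and neurokinin A, read 4184, 8972 and 19262 in Trim9 KO retinas, against 20015, 9632 and 8798 in WT retinas. The genotypes overlapped, and the lowest of the 6 readings was that of Trim9 KO replicate 1 (log2 fold change -0.41, 95% interval -2.58 to 1.77). A dimmer probe set for Tac1 had the other sign (log2 fold change 0.33, standard error 1.28), with readings of 1144, 399 and 122 in Trim9 KO retinas, against 151, 1817 and 93.6 in WT retinas.

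Cck, the precursor of cholecystokinin, and Penk, the precursor of the enkephalins, had the lowest log2 fold changes of the peptide genes, and both rested on 1 array. Cck read 54.4, 1312 and 1020.1 in Trim9 KO retinas, against 441, 1649 and 1625 in WT retinas (log2 fold change -1.23, 95% interval -3.99 to 1.53). Without Trim9 KO replicate 1 its log2 fold change was 0.12. Penk read 189.9, 3844 and 3549 in Trim9 KO retinas, against 2722, 1900.2 and 2838 in WT retinas. The low reading of Trim9 KO replicate 1 set the mean of that genotype (10.47 ± 2.41 in Trim9 KO and 11.27 ± 0.32 in WT retinas, log2 intensity, SD, n = 3 each). The log2 fold change of Penk was -0.80 (95% interval -3.48 to 1.88), and it was 0.59 without that array, where both remaining KO arrays lay above all 3 WT arrays.

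Npy, the precursor of neuropeptide Y, a peptide of amacrine cells, read 1877, 3336 and 6583 in Trim9 KO retinas, against 2768, 2654 and 3582 in WT retinas. The KO arrays spread to both sides of the WT arrays (11.76 ± 0.90 in Trim9 KO and 11.55 ± 0.23 in WT retinas, log2 intensity, SD, n = 3 each), with a log2 fold change of 0.22 (95% interval -1.86 to 2.29). Cartpt, which encodes the CART peptides and marks a subset of ganglion cells, read 8718, 36922 and 82221 in Trim9 KO retinas, against 97334, 19553 and 25846 in WT retinas. The KO arrays held the lowest reading, and the highest was that of WT replicate 1. Its log2 fold change of -0.30 (95% interval -2.79 to 2.19) became 0.59 without Trim9 KO replicate 1 and 0.41 without WT replicate 1.

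**Figure D2:**
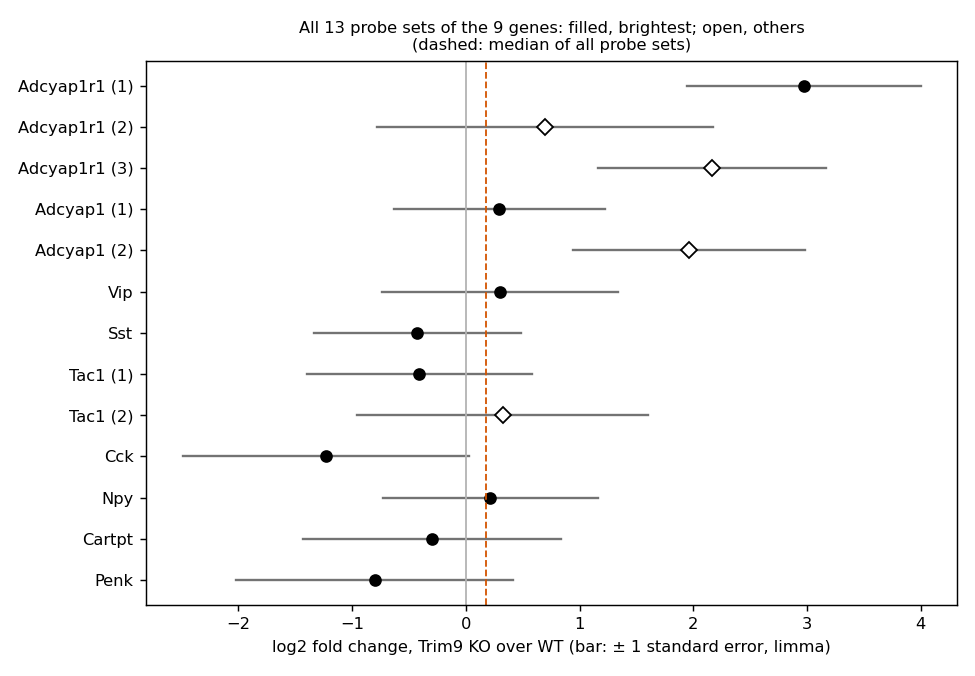
The 13 probe sets of the 9 genes (y axis, numbered from the brightest where a gene has several) and their log2 fold changes in Trim9 KO over WT retinas (x axis), with bars of 1 standard error from limma and a dashed line at the median of all probe sets (0.18). Filled points are the brightest probe sets. Adcyap1r1 lies between 0.70 and 2.97, and the brightest probe sets of the peptide genes lie between -1.23 and 0.30.

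Leaving out Trim9 KO replicate 1 turned the sign for 4 of the 8 peptide genes, Tac1, Cck, Cartpt and Penk. Without it, the mean of Trim9 KO retinas was the lower one for 1 of the 9 genes, Sst, in place of 5. That array gave the lowest of the 6 readings for 6 of the 8 peptide genes, all but Adcyap1 and Sst. Averaged over the 8 genes, it lay 1.45 below the mean of the 6 arrays on the log2 scale (-1.45), whereas the other arrays lay between -0.034 and 0.85. Trim9 KO replicate 3 and WT replicate 1 gave the highest reading for 3 peptide genes each.

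Cartpt, Vip and Tac1 are singled out here after their profiles over the arrays were seen to be alike, so what follows is a description of them. Averaged over the 3 genes, the readings lay 1.17 above the mean on Trim9 KO replicate 3, 0.11 on Trim9 KO replicate 2 and 1.07 on WT replicate 1, whereas they were at -1.48 on Trim9 KO replicate 1, -0.63 on WT replicate 2 and -0.24 on WT replicate 3. The ratio of the 3' over the 5' control probe sets for Actb, which is higher when the RNA or its amplified copy is short, was 90.5, 94.5 and 20.2 on the first 3 of these arrays and 2.83, 9.87 and 3.42 on the others. The order within these sets was not that of the ratios: Trim9 KO replicate 2, with the highest ratio, read lowest of the first 3, and Tac1 lay at -0.21 there and at -0.10 on WT replicate 2. Of the other peptide genes, Sst, Adcyap1, Cck and Npy did not follow this division. Cck lay at -0.62 on WT replicate 1 and at 1.24 and 1.22 on WT replicates 2 and 3. Npy lay at -0.21 on WT replicate 1 and at 0.16 on WT replicate 3. Penk departed from the division about as little as Tac1, only by 0.55 on WT replicate 1 against 0.61 on WT replicate 3. The line between the 3 genes and Penk is therefore not a sharp one. The part of the ratio in these readings was not tested. Within the 3 arrays with the higher ratios, 2 of them Trim9 KO, the log2 fold change was 1.68 for Adcyap1r1, and within the 3 arrays with the lower ratios, 1 of them Trim9 KO, it was 4.59. It turned sign for some peptide genes, to 0.44 for Penk and 1.36 for Cck with the higher ratios and to -0.71 for Npy and -0.63 for Vip with the lower ratios.

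**Figure D3:**
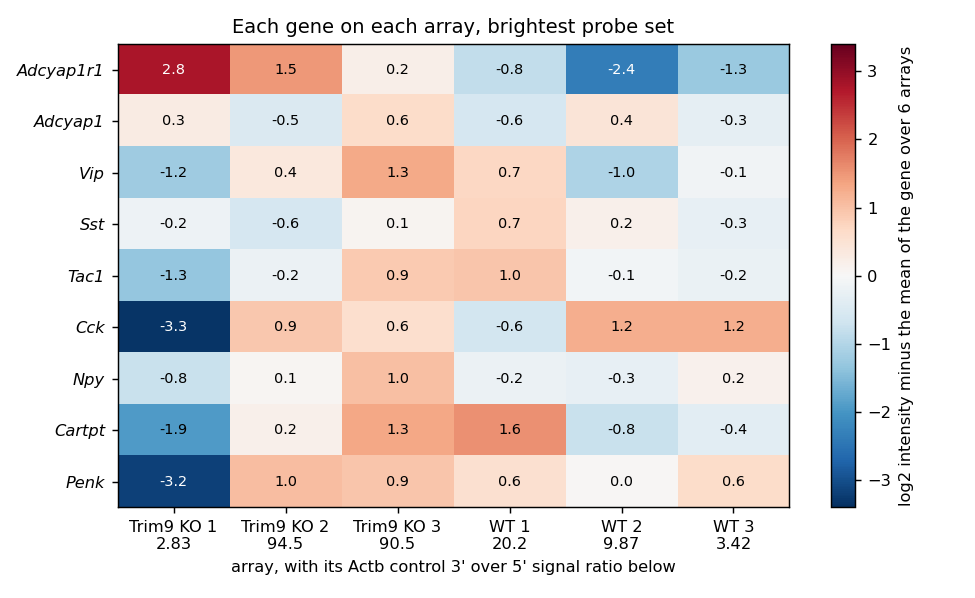
Log2 intensity of each gene (rows) on each array (columns, Trim9 KO left and WT right) minus the mean of that gene over the 6 arrays, with the Actb 3' over 5' signal ratio of the array below its name. Red is above and blue below the mean. Cartpt, Vip and Tac1 are red on Trim9 KO replicate 3 and WT replicate 1 and blue on Trim9 KO replicate 1, whereas Adcyap1r1 is red on all 3 KO arrays and blue on all 3 WT arrays.

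Among these 9 genes and 69 other genes of the peptide pathways, the nearest profile to each was found by the root mean square difference of the centred log2 values of their brightest probe sets over the 6 arrays. Tac1 lay nearest to Cadps, a priming factor of dense core vesicles (difference 0.22), and Sst nearest to Chgb, the granin secretogranin 1 (0.30). Vip and Cartpt both lay nearest to the G protein subunit Gnaq (0.33 and 0.44). Penk and Cck both lay nearest to the adenylyl cyclase Adcy9 (0.36 and 0.66), whose brightest probe set was likewise low on Trim9 KO replicate 1. Another probe set for Adcy9, almost as bright, read 3313 on that array, its highest reading, and other probe sets for Gnaq also differed from the brightest one. Adcyap1 lay nearest to Prkar2b (0.25) and Npy to Prkar1b (0.50), both regulatory subunits of protein kinase A. The gene nearest to Adcyap1r1 was the somatostatin receptor Sstr4, at 0.86. The difference was not scaled by the spread of a gene, so it tends to be larger for genes that vary more. From the lowest to the highest array Adcyap1r1 covered 5.1 log2 units and Npy 1.8, so the sizes of these differences do not rank the matches. Other probe sets for Prkar2b, Prkar1b and Sstr4 differed from the brightest ones, so these matches hold for the brightest probe sets only.

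**Figure D4:**
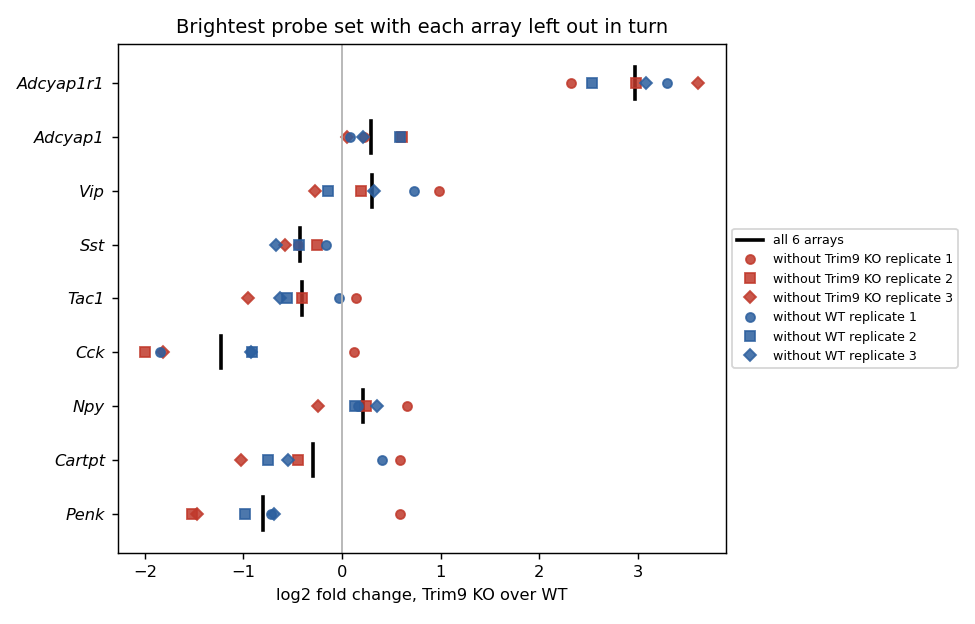
Brightest probe set of each gene (y axis) and its log2 fold change in Trim9 KO over WT retinas (x axis) with all 6 arrays (black line) and with each array left out in turn (points, red where a KO array and blue where a WT array was left out). Adcyap1r1, whose sign cannot turn here as its genotypes do not overlap, lies between 2.33 and 3.61. Sst lies between -0.67 and -0.16, and Cck and Penk move to 0.12 and 0.59 without Trim9 KO replicate 1.

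The steps before and after the peptides were read from lists of their genes, of which no gene passed limma. Of 14 measured genes for peptide processing and dense core vesicles, 10 were lower on average in Trim9 KO retinas and 4 were higher (median -0.62 on the log2 scale, against 0.14 over all genes), and 9 were lower without Trim9 KO replicate 1 (median -0.50). Markers of rods and Müller glia lay to the same side by about as much, and those of amacrine cells by less (median -0.31). Those of ganglion cells (0.20), bipolar cells (0.01), microglia (0.60) and pigment epithelium (0.87) did not. Of the rod markers 5 of 6 were lower in KO (median -0.56), and of the Müller glia markers 4 of 5 (median -0.54). The Müller glia markers averaged 12.9 to 15.25 in Trim9 KO and 14.1 to 15.55 in WT retinas (mean log2 intensity), with none at 0. Their part in the list was not tested. For 3 of the 14, read by brightest probe sets, every KO array lay below every WT array, as for 2.89% of all genes. For 0 every KO array lay above, as for 5.35%. The 3 were the secretogranins Scg2, Scg3 and Scg5, which load or mature the contents of the vesicles, the first 2 singled out after their values were seen. Scg2 read 15365, 18416 and 30934 in Trim9 KO retinas, against 33208, 37042 and 33551 in WT retinas (log2 fold change -0.75, standard error 0.91). Scg3 read 4809, 4717 and 7265 in Trim9 KO retinas, against 7334, 9441 and 18116 in WT retinas (log2 fold change -0.97, standard error 0.93). Scg5, the chaperone of the prohormone convertase 2, read 1198, 7355 and 11704 in Trim9 KO retinas, against 13541, 14741 and 30141 in WT retinas (log2 fold change -1.95, standard error 1.09). In Scg3 the gap between the nearest KO and WT arrays was small, and Trim9 KO replicate 1 was the lowest array for Scg2 and Scg5. When any 1 array was left out, the log2 fold changes were -1.04 to -0.53 for Scg2, -1.25 to -0.60 for Scg3 and -2.61 to -0.97 for Scg5. Without overlap between the genotypes, their sign could not turn there. The vesicle membrane protein Ptprn had the lowest log2 fold change of the list with overlapping genotypes (-2.48). The amidating enzyme Pam (0.72) and the priming factor Cadps2 (0.84) had the highest.

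Of 19 peptide receptors, 12 were higher on average in Trim9 KO retinas and 7 were lower (median 0.24). Of the 19, 7 were brighter than the median probe set. The median turned to -0.011 after quantile normalization and to -0.082 with equal array medians. By brightest probe sets, Vipr2 was the 1 receptor of the 19 without overlap, where 8.24% of all genes had none. A dimmer probe set of the neuropeptide Y receptor Npy5r also had none, with KO above WT (log2 fold change 2.77). The brightest one of Npy5r overlapped (0.98). Among the brighter receptors, the log2 fold change was -1.18 for the somatostatin receptor Sstr2 and -0.16 for the nociceptin receptor Oprl1, and 1.33 for the tachykinin receptor Tacr2 and 1.69 for Sstr4. Sstr2 read 42.3 on Trim9 KO replicate 1, and its log2 fold change was -0.065 without that array. Sstr4 read 5054 on the same array, and was at 0.80 without it and at 0.33 with the mean of its 2 probe sets.

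Of 19 other peptide precursors, 13 were higher on average in Trim9 KO retinas and 6 were lower (median 0.74, and 0.26 without Trim9 KO replicate 1). Only 10 of the 19 were brighter than the median probe set, 8 of them higher in KO and 2 lower (median 0.96). All 3 KO arrays lay above all 3 WT arrays for 2 of the 19, where 5.35% of all genes did so, and below for 0. Crh, the precursor of corticotropin-releasing hormone, singled out after its values were seen, read 2933, 2190.1 and 2485 in Trim9 KO retinas, against 1001, 1833 and 713 in WT retinas (log2 fold change 1.19, standard error 0.92). Its KO arrays lay close together. The brighter probe set of Pomc, the precursor of the melanocortins, read 1578, 1928 and 1816 in Trim9 KO retinas, against 1432 (replicate 1), 109.5 and 501 in WT retinas (log2 fold change 1.97, standard error 1.08). The other probe set of Pomc overlapped between the genotypes, reading 687, 705 and 576 in Trim9 KO retinas, against 65.6, 2654 and 711 in WT retinas (log2 fold change 0.31). In WT retinas alone it was the brighter of the 2 (mean log2 intensity 9.08, against 8.83), so here too the choice rested on the KO arrays. Gal, the precursor of galanin, was at 1.95, Grp, of gastrin-releasing peptide, at -0.96 and Oxt, of oxytocin, at -0.20, each with overlap.

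Of 17 genes for cyclic AMP signalling, through which PACAP and VIP act, 9 were higher on average in Trim9 KO retinas and 8 were lower (median 0.18, and -0.14 with equal array medians). By brightest probe sets, the 1 gene of the 17 without overlap (8.24% of all genes) was Gnas. Gnas encodes the stimulatory G protein subunit that couples these receptors to adenylyl cyclase, and is singled out after its values were seen. It read 26608, 14783 and 27655 in Trim9 KO retinas, against 38196, 51581 and 42569 in WT retinas (log2 fold change -0.98, standard error 0.91). The direction was that of its brightest probe set, and the mean of its 5 probe sets gave 0.11. Of the catalytic subunits of protein kinase A, Prkacb was at -2.21 and Prkaca at 0.83, both with overlap, and the mean of the probe sets gave -1.04 and 0.22. The adenylyl cyclases Adcy9 and Adcy5 were at -1.37 and 0.54, both with overlap. Another bright probe set of Adcy9 was at 0.57, and its dimmer ones were at -1.12 and -1.39.

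**Figure D5:**
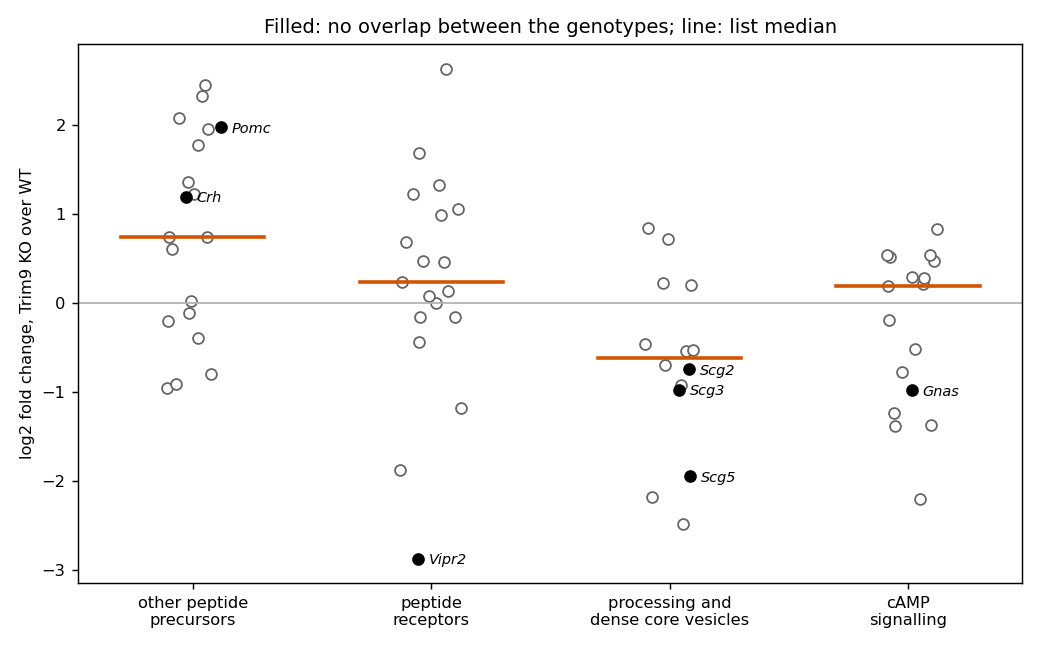
Genes of 4 lists (x axis), each measured gene being placed by the log2 fold change of its brightest probe set in Trim9 KO over WT retinas (y axis). Filled points with names are genes whose genotypes do not overlap, open points are the others and orange lines are list medians. Scg2, Scg3, Scg5, Gnas and Vipr2 lie below 0 and Crh and Pomc above.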

How the data were processed

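RNA of adult retinas from 3 Trim9 KO and 3 WT mice was hybridized to Affymetrix mouse arrays, with an array for each sample. Precision is limited by their number. The deposited table gives linear intensities, which the authors had brought to a common mean after trimming 2% at each end. MAS5 is named in the submitters' processing notes, with no version, whereas the methods of the paper name RMA, whose output would be log2. The scanner files were not used here. After 64 control probe sets were set aside, log2(intensity + 16) of 45037 probe sets was fitted with limma 3.58.1 in R 4.3.3, without a filter or block, and p-values were adjusted over all of them (Benjamini-Hochberg). The fit was run on simulated data, where recovery of changes was required only at a spread well below that of these arrays. That run is no measure of power at the real spread. Probe sets were named from the platform annotation (34945 name 1 gene, 932 several, 9160 none), and the gene numbers of 99.4% of the first were found in RefSeq. If the samples of a genotype are not separate animals, SDs and p-values measure only technical spread. Permutation tests were exact and two-sided.

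Members and lists were chosen with earlier results of these data known. Named genes were the 9 genes, Trim9, the nearest profile to each gene and, in each of 4 lists, those with the 2 lowest and 2 highest log2 fold changes among genes brighter than the median probe set; others are said to be singled out. The settings varied were the normalization (quantile, or equal array medians), a pseudocount of 1 or 64, a filter on dim probe sets, a replicate block, a trend with a robust prior, array weights, the mean or median over probe sets, and leaving out each array. The 2 sets of arrays by Actb ratio were added after the data were seen. Figures were drawn with matplotlib 3.10.9.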

Additional observations from a re-analysis of the deposited data

How the results depend on the processing

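The number of the 9 genes with a lower mean in Trim9 KO retinas was 5, and was 8 with equal array medians, 3 with array weights and 1 to 7 when an array was left out. The number without overlap was 1, and 1 to 2 when an array was left out (Penk joined without Trim9 KO replicate 1, Cck without WT replicate 1 and Sst without WT replicate 3). No probe set passed limma in any of the settings in which the fit was run. With equal array medians the log2 fold change turned to -0.11 for Npy, -0.019 for Vip and -0.028 for Adcyap1, and after quantile normalization to -0.022 for Adcyap1. Array weights turned Cartpt to 0.18, Penk to 0.24, Oxt to 0.063 and Sstr2 to 0.15. The mean of the probe sets gave 0.28 for Oprl1 and 0.11 for Gnas, and the median of their folds 0.31 and 0.33. In the arrays with the higher Actb ratios Penk was at 0.44 and Cck at 1.36, and in those with the lower ratios Npy was at -0.71 and Vip at -0.63. Leaving out an array gave ranges of -0.25 to 0.65 for Npy, -1.03 to 0.59 for Cartpt, -1.52 to 0.59 for Penk, -0.27 to 0.99 for Vip, -0.96 to 0.14 for Tac1, -2.00 to 0.12 for Cck, -1.81 to 0.26 for Grp, -1.20 to 0.82 for Oprl1 and -2.27 to 0.045 for Adcy9. The cause of these turns was not tested. Adcyap1r1 was at 1.68 to 4.59 over the settings run. As its genotypes did not overlap, leaving out an array or taking the sets by Actb ratio could not turn its sign. The 4.59 compares Trim9 KO replicate 1 alone with WT replicates 2 and 3.

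Replicate numbers are not said to pair the animals. The correlation of deviations from the genotype means between same-numbered arrays was -0.23, -0.081 and 0.033, so the numbers were not taken as pairs. With a replicate block the log2 fold changes were the same (2.97 for Adcyap1r1), and 0 probe sets passed.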

Other observations

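For several dim genes of the peptide lists, Trim9 KO replicate 1 gave by far the highest reading. Those below are examples, named after their values were seen. Ghrh read 2413, 74.5 and 454 in Trim9 KO retinas, against 129.9, 65.4 and 38.0 in WT retinas. Nppc, the precursor of C-type natriuretic peptide, read 1860.3, 133 and 63.8 in Trim9 KO retinas, against 33.8, 28.7 and 64.9 in WT retinas. The somatostatin receptor Sstr5 read 1787, 306 and 143 in Trim9 KO retinas, against 7.35, 59.7 and 204 in WT retinas. The peptide precursor Nts read 1772, 22.5 and 80.3 in Trim9 KO retinas, against 126, 134 and 2.34 in WT retinas. For each of these genes, the genotypes overlapped and the mean lay below that of the median probe set.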
